A study of Mus musculus with 6 samples.

Results

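The genes described here encode the machinery that fuses vesicles with membranes, the SNARE proteins and their regulators, together with the granins of secretory granules. They were matched by symbol alone, from 9 gene families, but the families were chosen with earlier results of these data known. A gene counted as a member when a probe set of the array carried its symbol and no other, and of several probe sets the brightest on average across the 6 samples stood for the gene. This gave 65 members among 18194 genes, covered by 146 probe sets.

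Cumulus cells are the somatic cells around the oocyte of an antral follicle, and after the ovulatory stimulus they secrete a matrix and move apart. The samples were cumulus cells of Wildtype female mice, 23 days old per the age label. All mice were given 5 IU of eCG (equine chorionic gonadotropin, which makes follicles grow) at 21 days of age, for 46 h. Mice of the hCG-6h group then spent 6 h under 5 IU of hCG (human chorionic gonadotropin, the ovulatory stimulus), and mice of the hCG-0h group received none. Each group had 3 samples with 1 single-colour array each, and a sample pooled the cells from 50 cumulus-oocyte complexes. For samples 2 and 3 of hCG-6h the description field reads 7 h and 8 h, whereas the title reads 6 h. Over all genes, Pearson's r between arrays was 0.986 to 0.988 within groups and 0.942 to 0.943 between groups. Nothing in the labels says that the samples came from separate animals, so p-values measure the spread between these samples, which may be technical, and the effect of hCG cannot be told apart from that of the added hours.

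In regulated exocytosis a vesicle is first brought to the plasma membrane by a small GTPase of the Rab family and its effectors, is then primed by proteins of the Munc13 family, and fuses when a SNARE of the vesicle (a VAMP) zips together with SNAREs of the target membrane (a syntaxin and a SNAP-25 relative). Proteins of the Sec1 and Munc18 family hold and release the syntaxins, complexins clamp the partly formed bundle, and synaptotagmins act as calcium sensors. Granins are acidic proteins that pack the cargo of dense-core granules. Mouse granulosa cells are known to make SNAP-25 after the ovulatory stimulus under the progesterone receptor and to need it for the release of cytokines.

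At hCG-6h, 13 of the 65 members were higher and 4 were lower than at hCG-0h (limma, adjusted p under 0.05 over all 18194 genes), and 48 did not pass. That is 26.2% of the members called, against 21.3% of all genes. By direction, 20% of the members were higher, against 10.8% of all genes, and 6.15% were lower, against 10.5%. The share of members called in either direction thus lay near that of the array as a whole. The median log2 change was 0.08 over the members and 0.01 over all genes, so the typical member hardly moved. Members that passed with changes of at least 2-fold numbered 5 that rose and 2 that fell, 10.8% of the members in all, against 9.97% of all genes (5.23% that rose and 4.74% that fell). All 17 called members had groups that did not overlap, and so had 6 others that did not pass, 4 of them higher and 2 lower at hCG-6h (35.4% of the members in all, against 37.9% of all genes). By direction, 17 members lay wholly higher (26.2%, against 19.3% of all genes) and 6 wholly lower (9.23%, against 18.7%). Of the 48 members that did not pass, 43 had a 95% interval of the change that stayed within 1 log2 unit of 0, and 5 had a wider one. The count of rising members leaned on single samples, and that of all genes fell too when a sample was left out. For the members it was 7 without hCG-0h sample 2 and 8 without hCG-0h sample 1, where fewer samples were left to test. It was 9 to 12 without each of the other 4. All genes called higher numbered 1518 and 1606 in the first 2 of these fits, against 1969 with all 6 samples.

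**Figure D1:**
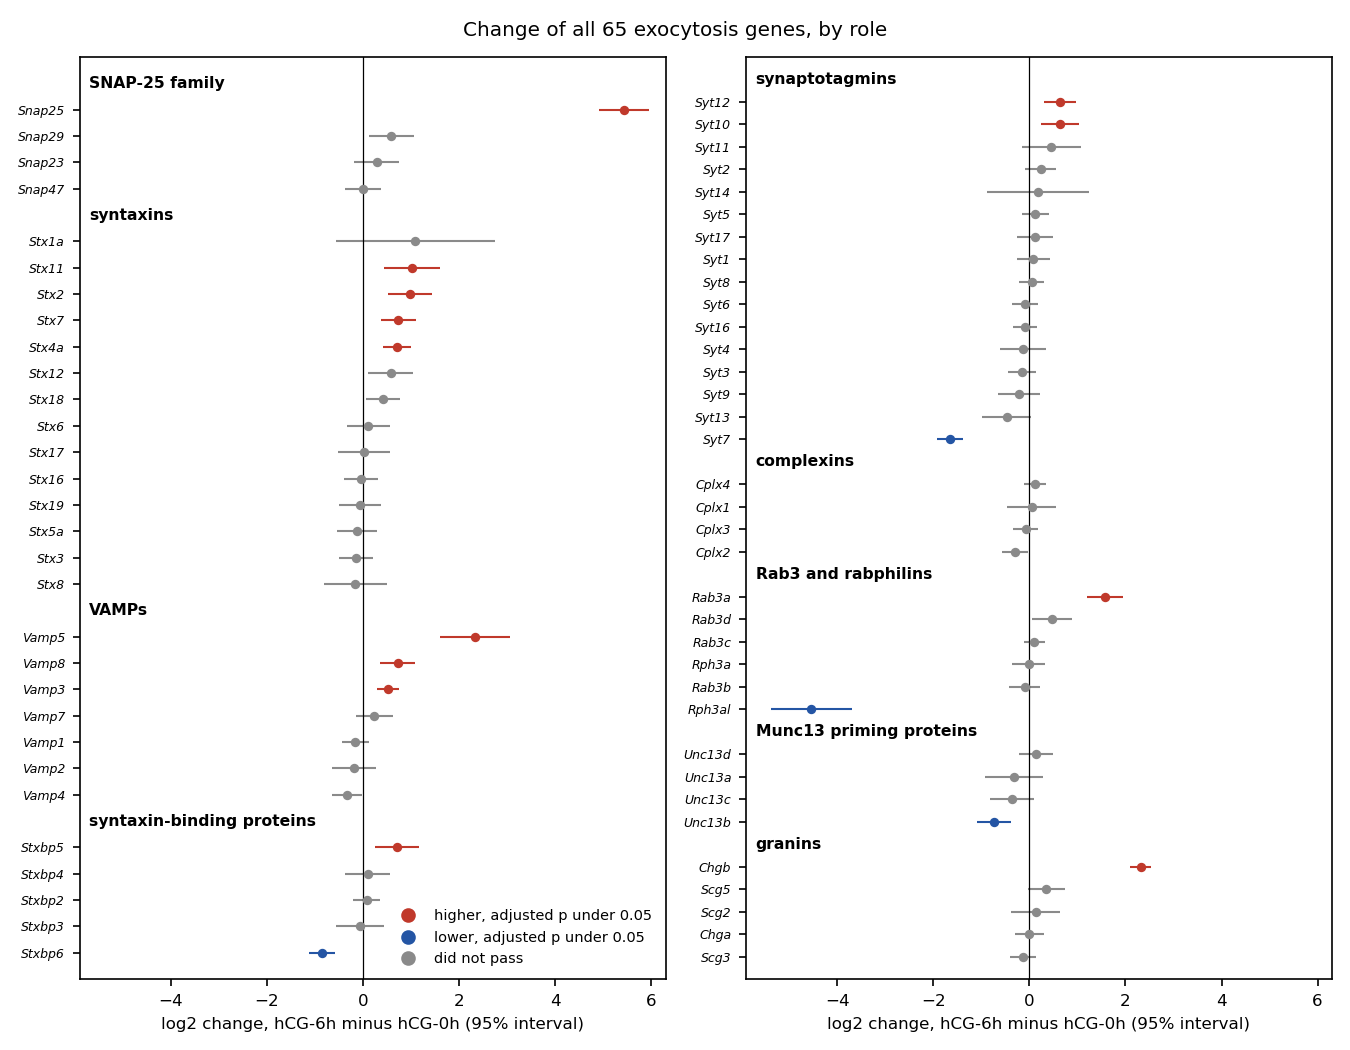
Log2 change (hCG-6h minus hCG-0h) of each of the 65 members on the horizontal axis, with its 95% interval from limma, grouped by role and coloured by whether adjusted p was under 0.05. Snap25 stands alone on the right at 5.43 and Rph3al alone on the left at -4.54, while most members lie close to 0.

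The 7 members that passed with changes of at least 2-fold came from 6 of the 9 families. Snap25 encodes the plasma membrane SNARE of neurons and endocrine cells and had the largest change of all members. Its log2 values (RMA signal) were 10.15, 10.03 and 9.81 at hCG-6h, against 5.03, 4.39 and 4.27 at hCG-0h. The groups lay more than 4 log2 units apart, and Snap25 rose by 5.43 ± 0.22 (SE), 43.2-fold (limma adjusted p = 2.67e-05). At hCG-0h all 3 values lay below 5.81, the level that 95% of the 71 olfactory and vomeronasal receptor genes on the array did not exceed, so the gene was not distinguishable from genes that these cells should not use. RMA compresses the changes of such dim probe sets, and the fold is approximate.

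Vamp5, a vesicle SNARE first described in muscle, stood at 9.36, 9.62 and 9.52 at hCG-6h, against 6.47, 7.31 and 7.74 at hCG-0h. It rose by 2.33 ± 0.31, 5.02-fold (adjusted p = 0.00249), and its hCG-0h samples were the more scattered. Chgb, chromogranin B of the dense-core granule, measured 9.21, 9.23 and 9.21 at hCG-6h, against 6.95, 6.82 and 6.93 at hCG-0h. The samples of each group lay almost on top of each other, and Chgb rose by 2.32 ± 0.09, 4.98-fold (adjusted p = 2.68e-05). Rab3a, a GTPase that sits on secretory vesicles, measured 8.89, 8.66 and 8.63 at hCG-6h, against 7.43, 7.06 and 6.97 at hCG-0h, and rose by 1.57 ± 0.15, 2.98-fold (adjusted p = 0.00068). Stx11, a syntaxin that cytotoxic lymphocytes use to release granules, reached 6.67, 6.94 and 7.39 at hCG-6h, against 5.58, 6.10 and 6.27 at hCG-0h. The gap between the closest Stx11 values of the groups was narrow, and its rise of 1.02 ± 0.24, 2.02-fold (adjusted p = 0.0272), was not called in 5 of 15 other settings, among them the fits without hCG-6h sample 2 or 3 or hCG-0h sample 1 or 2 (adjusted p up to 0.0709).

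The larger of the big falls was that of Rph3al, which encodes Noc2, a Rab3 and Rab27 effector of endocrine and exocrine secretion. Rph3al measured 5.88, 6.01 and 7.23 at hCG-6h, against 11.09, 10.89 and 10.75 at hCG-0h. Its 3 hCG-0h values agreed closely, and at hCG-6h sample 3 lay more than 1 log2 unit above the other 2. Rph3al fell by 4.54 ± 0.35 on the log2 scale, 23.2-fold lower at hCG-6h (adjusted p = 0.00026). Syt7, a high-affinity calcium sensor of slow exocytosis, measured 10.00, 10.14 and 10.32 at hCG-6h, against 11.75, 11.79 and 11.87 at hCG-0h. It fell by 1.65 ± 0.12 on the log2 scale, 3.14-fold lower (adjusted p = 0.000188), and remained bright in both groups.

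**Figure D2:**
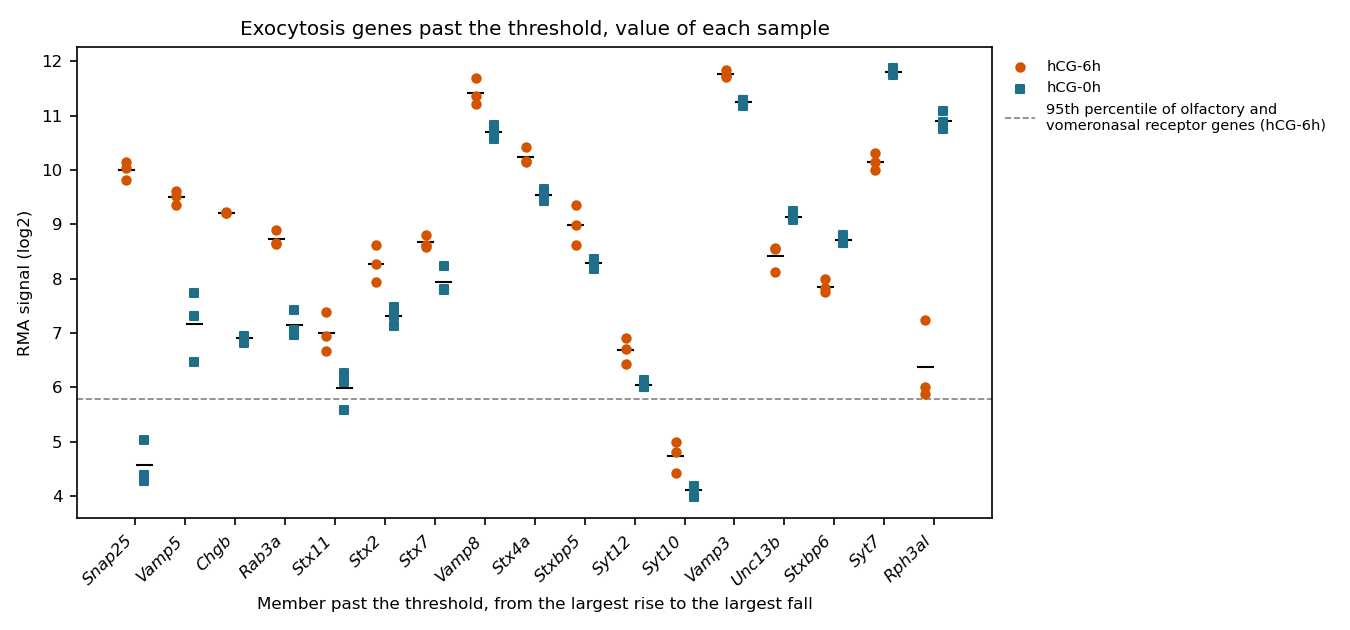
RMA signal (log2, vertical axis) of each sample for the 17 members past the threshold, hCG-6h as circles on the left and hCG-0h as squares on the right of each gene, with a bar at each group mean. No gene has overlapping groups, and Snap25 at hCG-0h lies under the dashed line that marks the 95th percentile of receptor genes (5.79 at hCG-6h).

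Promoter sequences of 5 of these 7 genes were in the RefSeq table used here (build GRCm38.p6). Those of Chgb, Rab3a, Vamp5 and Stx11, which rose, and of Rph3al, which fell, are printed here from 250 bases before to 50 bases after the first listed start. They let the start regions of members that moved together be set beside that of one that moved the other way. Capitals mark matches on either strand to TGACG (the core of the cAMP response element, also found within the full element TGACGTCA), GGGCGG (the GC box of Sp1 proteins), TGANTCA (AP-1) and TGTTCT (1 arm of a progesterone response element).
Chgb, chr2:132781392-132781691, plus strand: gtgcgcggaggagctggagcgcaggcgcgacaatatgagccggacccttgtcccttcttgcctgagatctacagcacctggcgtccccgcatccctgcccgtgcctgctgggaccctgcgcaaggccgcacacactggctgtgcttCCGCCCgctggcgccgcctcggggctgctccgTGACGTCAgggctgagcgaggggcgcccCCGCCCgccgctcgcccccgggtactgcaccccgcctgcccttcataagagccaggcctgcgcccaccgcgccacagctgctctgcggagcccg
Rab3a, chr8:70754453-70754752, plus strand: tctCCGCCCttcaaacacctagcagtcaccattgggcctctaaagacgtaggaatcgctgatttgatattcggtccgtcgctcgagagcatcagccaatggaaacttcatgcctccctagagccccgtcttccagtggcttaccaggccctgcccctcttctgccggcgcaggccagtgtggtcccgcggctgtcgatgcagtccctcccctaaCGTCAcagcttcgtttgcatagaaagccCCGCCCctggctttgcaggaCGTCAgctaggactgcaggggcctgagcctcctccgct
Vamp5, chr6:72380419-72380718, minus strand: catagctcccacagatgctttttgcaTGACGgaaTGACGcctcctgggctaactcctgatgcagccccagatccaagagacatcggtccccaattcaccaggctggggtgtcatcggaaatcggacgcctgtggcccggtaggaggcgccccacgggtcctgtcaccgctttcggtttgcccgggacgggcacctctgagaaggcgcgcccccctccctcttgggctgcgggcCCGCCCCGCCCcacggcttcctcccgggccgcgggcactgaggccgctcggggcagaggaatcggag
Stx11, chr10:12964210-12964509, minus strand: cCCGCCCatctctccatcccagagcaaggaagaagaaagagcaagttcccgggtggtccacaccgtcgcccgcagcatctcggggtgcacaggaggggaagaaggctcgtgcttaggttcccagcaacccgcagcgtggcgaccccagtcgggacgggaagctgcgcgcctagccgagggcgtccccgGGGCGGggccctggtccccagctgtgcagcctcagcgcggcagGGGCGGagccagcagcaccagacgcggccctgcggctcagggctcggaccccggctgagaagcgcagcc
Rph3al, chr11:75925842-75926141, minus strand: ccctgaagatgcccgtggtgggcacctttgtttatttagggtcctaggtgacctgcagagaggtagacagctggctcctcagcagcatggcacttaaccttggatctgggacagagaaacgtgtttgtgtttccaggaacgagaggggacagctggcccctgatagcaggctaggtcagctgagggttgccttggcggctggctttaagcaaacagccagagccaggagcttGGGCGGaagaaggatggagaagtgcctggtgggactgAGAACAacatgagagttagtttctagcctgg

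The window of Chgb held the full element TGACGTCA at positions -72 to -65, counted from the start site, a sequence found in 1.79% of the 32851 promoters of the table. At the first listed start it was in 3 of 53 members (5.66%), Chgb and 2 that did not pass, Scg2 and Stxbp3. The windows of Rab3a and Vamp5 each held TGACG at 2 places, and those of Stx11, which rose, and Rph3al, which fell, held none. GGGCGG occurred in all 5 windows, 3 times in that of Stx11, 2 times in each of those of Chgb, Rab3a and Vamp5 (in Vamp5 as a pair that shares 1 base) and 1 time in that of Rph3al. The Rph3al window alone of the 5 held TGTTCT, on the minus strand at positions 20 to 25. That motif occurred in 19.0% of all promoters. At the first listed start it was in 4 of 53 members (7.55%), 3 of which did not pass. Rab3a had a second listed start, not printed, whose window matched none of the motifs. At the first listed start of each of the 53 members with a promoter, 20 (37.7%) held TGACG and 37 (69.8%) held GGGCGG. Of all 32851 promoters, 20.8% and 35.7% did, but these count every listed start of a gene, so the shares are not fully alike. The median GC content of the member promoters was 61.3%, against 52.7% for all, and both motifs are rich in G and C. Among the 10 rising members with a promoter 5 held TGACG, as did 15 of the 40 that did not pass and 0 of the 3 that fell. These matches describe letters in a window and were not tested as binding sites.

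Within the SNAP-25 family Snap25 was the member that passed. Snap23, the widely used relative that does the same task outside the nervous system, measured 10.90, 10.55 and 11.03 at hCG-6h, against 10.18, 10.71 and 10.74 at hCG-0h. Its groups overlapped, the log2 change of 0.28 had a 95% interval of -0.19 to 0.76, and all of its 3 probe sets failed to pass. Snap29, which works in endosomes and in autophagy, was at 9.09, 8.63 and 8.51 in the hCG-6h samples, against 8.13, 8.42 and 7.92 in the hCG-0h samples. Those groups did not overlap, but the change of 0.59 ± 0.20 did not pass (adjusted p = 0.0833). Snap47 measured 10.85, 10.88 and 10.99 at hCG-6h, against 10.88, 11.21 and 10.64 at hCG-0h, with a change of less than 0.01.

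The 14 syntaxins had a median log2 change of 0.26. Of them 4 rose, none fell and 10 did not pass (28.6% called, against 21.3% of all genes). Besides Stx11 these were Stx2 and Stx4a, syntaxins of the plasma membrane, and Stx7, a syntaxin of late endosomes. Stx4a measured 10.16, 10.42 and 10.15 at hCG-6h, against 9.65, 9.43 and 9.52 at hCG-0h. The groups were well apart for its small rise of 0.71 ± 0.12, 1.64-fold (adjusted p = 0.00752). Stx2 measured 7.93, 8.27 and 8.62 at hCG-6h, against 7.31, 7.13 and 7.47 at hCG-0h, and rose by 0.97 ± 0.19 (adjusted p = 0.0135). Stx7 measured 8.59, 8.62 and 8.81 at hCG-6h, against 7.79, 7.80 and 8.23 at hCG-0h, and rose by 0.73 ± 0.15 (adjusted p = 0.0159). For both the lowest hCG-6h value lay above the highest hCG-0h value, but the call on Stx7 was lost without hCG-6h sample 3, hCG-0h sample 1 or hCG-0h sample 2 (adjusted p up to 0.0558). Stx12 and Stx18, of recycling endosomes and of the endoplasmic reticulum, had groups that did not overlap and changes of 0.58 and 0.41 that did not pass (adjusted p = 0.0853 and 0.0966). Stx1a, the neuronal plasma membrane syntaxin, was the most scattered member, at 6.76, 9.27 and 8.11 at hCG-6h, against 7.26, 7.66 and 5.95 at hCG-0h. Its groups overlapped, and the 95% interval of its change ran from -0.56 to 2.74. The other Stx1a probe set was dimmer (6.02 at hCG-6h and 5.51 at hCG-0h on average) and less scattered, with groups that did not overlap. Its change of 0.51 did not pass (limma adjusted p = 0.0946 over probe sets). Stx3, of apical membranes, measured 8.71, 8.78 and 9.02 at hCG-6h, against 9.12, 8.74 and 9.10 at hCG-0h (change -0.15, adjusted p = 0.551).

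Among the 7 VAMPs 3 rose and 4 did not pass (42.9% called, against 21.3% of all genes). Vamp8, a SNARE of secretory granules and late endosomes, measured 11.69, 11.22 and 11.36 at hCG-6h, against 10.83, 10.71 and 10.57 at hCG-0h, and rose by 0.72 ± 0.15, 1.65-fold (adjusted p = 0.0165). Without hCG-0h sample 2 or 3 that call was just lost (adjusted p = 0.0503 and 0.0566). Vamp3, a SNARE of recycling endosomes, measured 11.85, 11.72 and 11.75 at hCG-6h, against 11.28, 11.18 and 11.28 at hCG-0h. The samples of each group were tight, and Vamp3 rose by 0.53 ± 0.10, 1.44-fold (adjusted p = 0.00998). Vamp2, the synaptic vesicle SNARE and usual partner of SNAP-25, measured 10.81, 10.24 and 10.94 at hCG-6h, against 10.88, 10.80 and 10.87 at hCG-0h. It did not pass (change -0.19, 95% interval -0.64 to 0.26). Vamp4 measured 8.99, 9.11 and 9.11 at hCG-6h, against 9.17, 9.57 and 9.45 at hCG-0h, without overlap but also without passing (change -0.33, adjusted p = 0.136). Vamp5 and Vamp8 are neighbours in the RefSeq gene order, and the gene on the other side of Vamp5, Rnf181, was higher too (0.63 ± 0.10, adjusted p = 0.00509), whereas Ggcx on the other side of Vamp8 did not pass (-0.43, adjusted p = 0.161).

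The 5 syntaxin-binding proteins split. Stxbp5, or tomosyn, which blocks SNARE assembly, measured 8.98, 8.61 and 9.36 at hCG-6h, against 8.37, 8.18 and 8.29 at hCG-0h. It rose by 0.70 ± 0.19 (adjusted p = 0.0439), a call lost in 8 of 15 other settings. Among these were 5 of the 6 fits that left out 1 sample (adjusted p up to 0.122), all but the fit without hCG-6h sample 2. Stxbp6, or amisyn, another protein that binds syntaxin in place of a VAMP, measured 7.75, 7.82 and 7.99 at hCG-6h, against 8.65, 8.65 and 8.81 at hCG-0h. The groups were far apart for their spread, and Stxbp6 fell by 0.85 ± 0.11 on the log2 scale (adjusted p = 0.00251). The Munc18 proteins Stxbp2 and Stxbp3 did not pass. Stxbp2 measured 10.29, 9.98 and 10.06 at hCG-6h, against 10.10, 9.97 and 10.04 at hCG-0h, with a 95% interval of the change from -0.21 to 0.35. Stxbp3, the partner of the Stx4a protein, measured 10.62, 10.19 and 10.19 at hCG-6h, against 10.02, 10.45 and 10.73 at hCG-0h (95% interval -0.57 to 0.44).

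Of 16 synaptotagmins 2 rose, 1 fell and 13 did not pass (18.8% called, against 21.3% of all genes). The fall was that of Syt7. Syt12, which binds no calcium, measured 6.71, 6.91 and 6.43 at hCG-6h, against 6.01, 6.00 and 6.13 at hCG-0h, and rose by 0.64 ± 0.14 (adjusted p = 0.0213). Syt10, a calcium sensor of growth factor release in mouse neurons, measured 4.99, 4.42 and 4.81 at hCG-6h, against 4.18, 3.98 and 4.16 at hCG-0h, and rose by 0.63 ± 0.16 (adjusted p = 0.036). Each of these small rises was lost in 6 other settings. For Syt12 they included the fits without hCG-6h sample 1 or 2 or hCG-0h sample 1 or 2 (adjusted p up to 0.0675), and for Syt10 all fits short of 1 sample but that without hCG-6h sample 2 (adjusted p up to 0.107). Syt10 also lay within the range of the receptor genes in both groups. Syt1, the sensor of fast transmitter release, measured 5.51, 5.36 and 5.71 at hCG-6h, against 5.51, 5.59 and 5.23 at hCG-0h. Its values lay within the range of the receptor genes, as did those of 6 other synaptotagmins, Syt10 among them, in both groups, so a low level there could not be told from none. Syt11, which also binds no calcium, measured 8.51, 7.94 and 8.55 at hCG-6h, against 7.74, 7.54 and 8.34 at hCG-0h. The change of 0.46 did not pass (adjusted p = 0.273). Its other probe sets had changes of 0.66 to 1.26 and did not pass either. No complexin passed in limma over 4 members, and 1 of them, Cplx2, had an unadjusted p under 0.05. Cplx2 measured 7.54, 7.61 and 7.53 at hCG-6h, against 8.03, 7.82 and 7.74 at hCG-0h (change -0.30, adjusted p = 0.111). Cplx1 overlapped, at 6.98, 6.74 and 6.50 at hCG-6h, against 6.70, 6.33 and 7.05 at hCG-0h.

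The 6 genes of Rab3 and its rabphilin effectors held a rise, that of Rab3a, a fall, that of Rph3al, and 4 members that did not pass. Rab3d, the Rab3 of exocrine granules, measured 7.83, 7.23 and 7.56 at hCG-6h, against 7.23, 6.94 and 7.03 at hCG-0h with its brightest probe set (change 0.47, adjusted p = 0.107). Rab3b measured 6.04, 5.89 and 5.67 at hCG-6h, against 6.06, 6.01 and 5.81 at hCG-0h, and did not pass (adjusted p = 0.696). Of the 4 Munc13 genes Unc13b, the priming factor Munc13-2, measured 8.12, 8.54 and 8.57 at hCG-6h, against 9.09, 9.25 and 9.08 at hCG-0h. The groups did not overlap, and Unc13b fell by 0.73 ± 0.15 on the log2 scale, 1.66-fold lower (adjusted p = 0.0149). The fall of Unc13b missed the threshold without hCG-0h sample 2 (adjusted p = 0.0527). The other 3 Munc13 genes had changes of -0.32 (Unc13a), -0.36 (Unc13c) and 0.14 (Unc13d) that did not pass, and the first 2 lay within the receptor range at hCG-6h.

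Chgb was the granin that passed, out of 5. Chga, chromogranin A, measured 6.02, 6.20 and 5.90 at hCG-6h, against 6.10, 6.15 and 5.88 at hCG-0h. Its change was under 0.01 in size, with a 95% interval of -0.31 to 0.30. Chga averaged 6.04 in both groups, just above the receptor levels of 5.79 (hCG-6h) and 5.81 (hCG-0h). RMA compresses changes at such levels, so the interval may understate a change. Scg2, secretogranin II, was dim at 4.88, 5.32 and 4.63 at hCG-6h, against 5.12, 4.61 and 4.71 at hCG-0h. Scg3, which holds granins at the granule membrane, measured 6.17, 6.12 and 6.05 at hCG-6h, against 6.18, 6.43 and 6.14 at hCG-0h. Scg5, the 7B2 chaperone of a prohormone convertase, measured 6.79, 6.61 and 6.56 at hCG-6h, against 6.20, 6.08 and 6.61 at hCG-0h (change 0.36, adjusted p = 0.181). For these 3 genes the groups overlapped.

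Probe sets of the same gene did not always tell the same story. Of the 146 probe sets 21 were higher and 10 lower (limma, adjusted over 34958 probe sets), 21.2% in all, against 18.7% of all probe sets. By direction 14.4% were higher, against 9.28% of all probe sets, and 6.85% lower, against 9.43%. No member had probe sets called in opposite directions. Both probe sets of Snap25 rose (5.43 and 5.66), as did both of Rab3a (1.57 and 1.80). All 4 of Syt7 fell, with log2 changes of -1.75 to -1.45, and both of Unc13b fell. For Rph3al, in contrast, the other probe set was near the floor of the array in both groups (3.80 at hCG-6h and 3.92 at hCG-0h on average) and did not pass. The second probe set of Vamp5 did not pass either, with a change of 0.64. In the other direction, 4 members that did not pass had another probe set that did. Rab3d had 2 of 4 probe sets higher, by 1.54 and 1.62, and Stx6, a syntaxin of the trans-Golgi network, had 3 of 6 higher, by 1.12 to 1.63, although its brightest changed by 0.11. Vamp4, another SNARE of that compartment, and Cplx2 each had 1 of 3 probe sets lower, with changes of -0.80 and -1.14. Chgb had a single probe set.

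**Figure D3:**
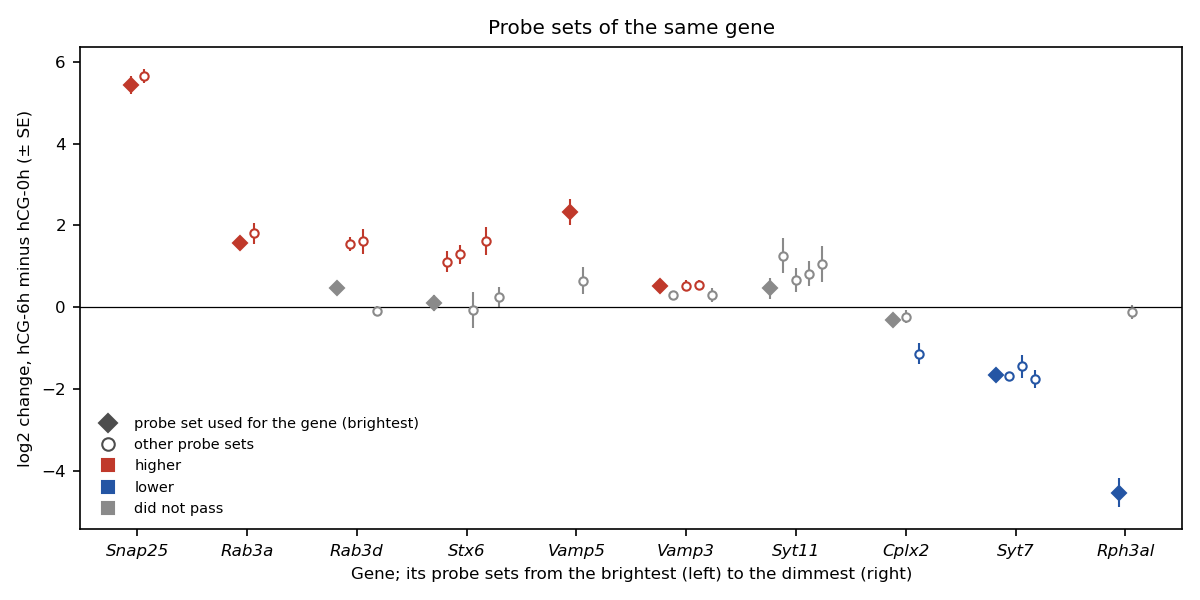
Log2 change (hCG-6h minus hCG-0h, vertical axis, with its standard error) of every probe set of 10 members, each gene's probe sets ordered from brightest to dimmest. The diamond marks the probe set that stands for the gene. Snap25, Rab3a and Syt7 have probe sets that move together, whereas those of Rab3d, Stx6, Vamp5 and Rph3al differ.

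The neighbours of these proteins in the fusion pathway, 84 measured genes in 10 lists that the symbol rule does not cover, were called about as often as all genes: 9 were higher and 9 lower (21.4%, against 21.3%). Of 8 Rab27 and synaptotagmin-like effectors 2 fell and none rose (25% called, against 21.3% of all genes). Sytl4, or granuphilin, which docks granules through Rab27 and syntaxin, averaged 8.35 ± 0.10 at hCG-6h and 10.92 ± 0.11 at hCG-0h (SD, n = 3 each), 5.94-fold lower (limma adjusted p = 2.90e-05). Sytl2 fell by 2.24 ± 0.47 (SE) on the log2 scale (adjusted p = 0.0167), to the receptor range at hCG-6h. Of 14 priming and docking genes 4 fell and 1 rose (35.7% called, against 21.3% of all genes). Cadps2, a priming factor of dense-core granules, was lower, with a log2 change of -1.20 ± 0.34 (adjusted p = 0.0497). Pclo was lower, with a change of -0.92, within the range of the receptor genes. Doc2a, a calcium sensor, was higher by 0.89 (adjusted p = 0.00439). Otof, the ferlin that serves as calcium sensor of inner hair cells, fell by 2.37 ± 0.28, 5.17-fold lower (adjusted p = 0.00168), 1 of 5 ferlins to pass.

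Among 17 proteins of vesicle membranes 3 rose and 1 fell (23.5% called, against 21.3% of all genes). Sv2c, a transporter-like protein of synaptic vesicles, averaged 7.20 ± 0.76 at hCG-6h and 5.20 ± 0.09 at hCG-0h (SD, n = 3 each) and rose 4-fold (limma adjusted p = 0.00834). Syn1, or synapsin I, which tethers synaptic vesicles, averaged 6.57 ± 0.50 at hCG-6h and 5.05 ± 0.16 at hCG-0h (SD, n = 3 each; limma adjusted p = 0.00623). Both were within the range of the receptor genes at hCG-0h. Syngr2, a widely used relative of synaptogyrin, rose by 1.03 ± 0.26 (SE, adjusted p = 0.0323). Of 12 further SNAREs, mostly but not only of the Golgi and the endoplasmic reticulum, Vti1b and Gosr2 rose, by 1.06 and 0.35 (adjusted p = 0.00233 and 0.0485). Exoc4 of the exocyst, the complex that tethers vesicles, fell by 1.38 ± 0.23 and Exoc3 of the same complex rose by 0.71 ± 0.14 (adjusted p = 0.00693 and 0.0146). The other 8 of the 10 genes on the exocyst list, which includes the relatives Exoc3l and Exoc6b, did not pass. Nsf, the ATPase that takes SNARE bundles apart, rose by 0.45 ± 0.11 (adjusted p = 0.0288), and Nsg1, a protein of neuronal endosomes, by 0.77 ± 0.13 (adjusted p = 0.00726). None of 5 further Sec1 and Munc18 relatives and none of 6 Rab3 regulators passed in limma, although 2 and 1 of them had an unadjusted p under 0.05. In fits short of 1 sample 6 to 8 partner genes rose and 4 to 6 fell, with 4 falling without hCG-6h sample 2 or 3 or hCG-0h sample 2 and 5 without hCG-0h sample 3. In those 6 fits the call on Gosr2 was lost 6 times (adjusted p up to 0.133), as was that on Snapin (up to 0.105), those on Cadps2, Nsf, Rims4 and Scamp1 5 times each (up to 0.134, 0.0913, 0.127 and 0.0929), and those on Pclo and Syngr2 4 times each (up to 0.124 and 0.0894). Exoc3 was lost without hCG-6h sample 3 or hCG-0h sample 3 (adjusted p = 0.0506 and 0.0518) and Sytl2 without hCG-0h sample 2 (adjusted p = 0.0565).

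**Figure D4:**
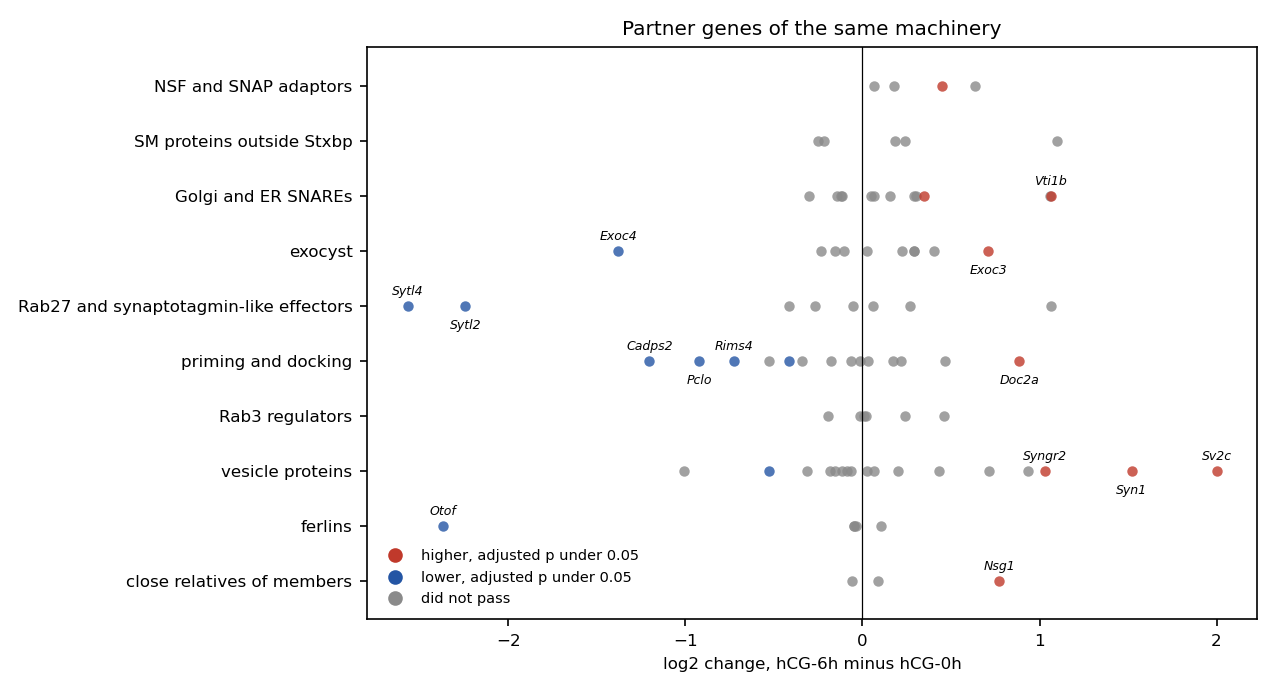
Log2 change (hCG-6h minus hCG-0h, horizontal axis) of 84 partner genes in 10 lists, 1 point per gene, coloured by whether adjusted p was under 0.05. Sytl4, Otof and Sytl2 lie farthest to the left and Sv2c farthest to the right, while most genes lie within 1 log2 unit of 0.

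Of 10 measured neuronal and neuroendocrine markers none passed (limma; 3 had an unadjusted p under 0.05), 6 lay within the range of the receptor genes in both groups, among them Insm1, Neurod1 and Dcx, and their summed signal spanned 8.74 to 9.33 at hCG-6h and 8.88 to 9.26 at hCG-0h on the log2 scale. The 3 were Syp, the vesicle protein synaptophysin, with a change of -1.01 (adjusted p = 0.0775), Nefm with 0.75 and Insm1 with 0.31, each without overlap. Of 10 oocyte markers none passed (2 at an unadjusted p under 0.05), Zp1, Zp2, Zp3, Bmp15 and Oosp1 lay within the receptor range, and the sum spanned 9.10 to 9.24 at hCG-6h and 8.72 to 9.19 at hCG-0h. Dppa3, an oocyte marker above the receptor range, did not overlap, at 7.83, 7.52 and 7.54 at hCG-6h, against 6.43, 7.44 and 6.15 at hCG-0h (change 0.96, adjusted p = 0.0851). The oocyte growth factor Gdf9 had a change of 0.46 (adjusted p = 0.123) with overlapping groups. Zar1, above the receptor range in both groups, went the other way (change -0.49, adjusted p = 0.369), also with overlap. Over the 10 oocyte markers the changes ran from -0.49 to 0.96, with a median of 0.015. Immune markers (9 genes, 3 at an unadjusted p under 0.05) summed to 9.05 to 9.18 at hCG-6h and 8.89 to 9.14 at hCG-0h. The changes of Cd3e, Cd79a and Ptprc were 0.93, -0.38 and 0.36. Mast cell and granulocyte markers (6 genes, 1 at an unadjusted p under 0.05) summed to 8.06 to 8.16 at hCG-6h and 7.95 to 8.06 at hCG-0h. The change of S100a8 was 0.64. The endothelial sum was higher at hCG-6h in every sample, at 8.53 to 9.18, against 7.63 to 8.37 at hCG-0h, carried by Cdh5 (change 1.63, adjusted p = 0.0530). Kdr had a change of 0.67 without overlap, while Pecam1, Kdr, Tie1, Tek and Emcn lay within the receptor range in both groups. The single theca marker measured, Cyp17a1, overlapped between groups. The part of such cells in the results above was not tested. Of 12 cumulus and granulosa markers 9 passed (75%, against 21.3% of all genes). That list includes expansion genes and was chosen with earlier results of these data known, so its share is only a description. The expansion genes Ptx3, Ptgs2, Tnfaip6 and Has2 rose, by 7.91, 6.22, 4.59 and 3.26 on the log2 scale, and Slc38a3, Fshr, Amhr2, Npr2 and Kitl fell, with log2 changes of -3.70, -3.22, -2.65, -2.16 and -2.02. Inha, Foxl2 and Amh did not pass, and Inha was bright in both groups, at 13.39 ± 0.03 at hCG-6h and 13.46 ± 0.05 at hCG-0h (SD, n = 3 each). In bulk samples a change in the cells present and a change in RNA per cell cannot be told apart.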

How the data were processed

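Cumulus cell RNA of 6 samples was amplified from very small amounts, labelled with biotin and hybridised, 1 sample to an array, per the labels' protocols. The authors deposited log2 values of 45101 probe sets, and RMA, Affymetrix Expression Console 1.1 and GCOS are the tools listed in the submitters' processing notes. RMA subtracts background, equalises the arrays and sums up the probes of a set, which compresses changes of dim genes. Arrays had medians of 6.43 to 6.46 on that scale. No detection call was used. Promoters and gene order came from RefSeq (GRCm38.p6). The number of arrays limits the precision.

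Probe sets with 1 symbol in the platform annotation were kept (34958), and 932 with several symbols and 9211 not listed were left out. The brightest probe set stood for each of 18194 genes. Samples were grouped by title, and hCG-6h was compared with hCG-0h in limma 3.58.1 (R 4.3.3; lmFit, eBayes, group as the only term, two-sided, Benjamini-Hochberg over all genes, no filter), a script tested on simulated data. Folds are 2 to the power of the log2 change. The labels do not state that sample numbers pair the samples. Deviations of same-numbered samples correlated at -0.02 to 0.03 across genes, and those of differently numbered samples at -0.04 to 0.02. With 3 samples per group this cannot exclude pairing. Sample values were given for members that passed with a change of at least 2-fold and for 29 members picked by name; values of the other members that passed, and of Vamp4, were added after their results were seen. Other settings were a replicate block, trend and robust variance, renewed quantile normalisation, median centring, a dim-gene filter, array weights, other uses of probe sets, hCG-6h sample 1 alone, a 2-fold limit and each sample left out. The members, lists and motifs were chosen with earlier results of these data known.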

Additional observations from a re-analysis of the deposited data

How the results depend on the processing

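Directions of the called members held throughout: in 254 combinations of a called member with any of 15 settings none reversed, 218 calls were kept and 36 were lost. Snap25, Chgb, Rab3a, Syt7, Rph3al and Stxbp6 were called in all of these settings, and Stxbp5, Syt10, Syt12, Stx11 and Stx7 lost the call in 8, 6, 6, 5 and 4. The higher and lower members numbered 13 and 4. Leaving out 1 sample gave 7 to 12 higher and 3 to 5 lower members, 1476 to 1606 higher and 1402 to 1605 lower genes (1969 and 1905 with all samples), and 6 to 8 higher and 4 to 6 lower partner genes (9 and 9 with all samples). With hCG-6h sample 1 alone, assumed to vary like the hCG-0h samples, 5 members, 810 genes and 4 partner genes were higher and 767 genes and 4 partner genes were lower. Averaging the probe sets of each gene called 7 members lower and 16 higher. Calls were also gained, 5 of them in 266 combinations of 18 other named members with these settings. Rab3d and Scg5 each gained 1 in the fits short of 1 sample (limma adjusted p = 0.0443 and 0.0496). A 2-fold limit left 5 members, 951 genes and 4 partner genes higher and 2 members, 863 genes and 5 partner genes lower. The second brightest probe set, chosen after seeing the data, called 4 partner genes lower, and under it Rph3al, Vamp5, Vamp3, Stx11, Stxbp5 and Stxbp6 were not called and Gosr2 (-0.14) and Pclo (0.063) reversed, neither of them called. With the sample number as a replicate block 12 members were higher and 4 lower, 1670 genes higher and 1594 lower, and 8 partner genes higher and 5 lower; Syt12 lost its call (adjusted p = 0.0564). Settings for the partner genes were added after seeing the data. Fits short of samples had fewer to test; otherwise the cause was not tested. Signal near the receptor range limits what can be said of 12 members in both groups.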
